A study of Rattus norvegicus with 12 samples.

Results

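The EGF receptor family and its ligands were followed in rat renal cortex through every probe that maps to 10 genes: the ligand genes Egf, Hbegf, Areg, Ereg, Tgfa and Btc and the receptor genes Egfr, Erbb2, Erbb3 and Erbb4. These genes held 19 of the 61537 probes outside the controls, and 10 of the 15645 genes that could be named on the array. The rats were male Sprague-Dawley animals bought at 5 weeks of age, and total RNA of their kidney cortex was hybridised to 12 Agilent arrays in 1 colour, with 4 groups of 3 biological replicates. Per the labels, 1 group received cisplatin by intravenous injection at 0.75 mg/kg/day and its control group received water by the same route. The other cisplatin group received 3.75 mg/kg/day by gavage, and its control group received water by gavage. Every group was treated for 4 weeks. Route, dose and experiment therefore changed together and cannot be told apart. The intravenous dose is that of each sample's own label, although a treatment protocol common to the samples has 3.75 mg/kg/day. Cisplatin, a platinum compound used against cancer, cross-links DNA and accumulates in kidney tubule cells.

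The ligands of this family are made as membrane-bound precursors and are released by metalloproteases of the ADAM family, after which they act on the same or neighbouring cells. EGF, transforming growth factor alpha, heparin-binding EGF-like growth factor (HB-EGF), amphiregulin, epiregulin and betacellulin all bind EGFR, and HB-EGF, epiregulin and betacellulin also bind ErbB4. ErbB2 has no known ligand and serves as a partner of the other receptors, while ErbB3 binds neuregulins and has little kinase activity of its own. In the kidney, EGF is made mainly by the thick ascending limb and the distal convoluted tubule, and EGFR is found along the tubule, where it takes part in repair after injury.

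In both experiments Egf was far lower after cisplatin, while Hbegf, Areg, Ereg and Egfr were higher and Erbb2, Erbb3 and Erbb4 were lower, although Erbb2 turned in the intravenous experiment with spike-in scaling. In the intravenous experiment 4 of the 10 genes were called higher and 5 lower, Btc being the gene that did not pass, and over all 34444 features tested 26.4% were called higher and 32% lower. In the gavage experiment 4 were called higher and 5 lower, Tgfa being the gene that did not pass, and over all features 29.5% were called higher and 29.8% lower. With spike-in scaling 3 genes were called lower in each experiment, since Erbb2 no longer passed in either, nor Tgfa in the intravenous or Btc in the gavage experiment. With more features called than not, the number of calls among these genes is not in itself out of the ordinary, and the sizes and directions of the single genes carry the description. Calls here mean an adjusted p under 0.05 in limma, with Benjamini-Hochberg adjustment over all features, and the probe with the highest mean stood for its gene. All 10 genes passed the filter on dim probes, Ereg through the cisplatin groups alone. Values per array are given as relative signal, the probe's processed intensity over the 75th percentile of all probes on that array, and they compare arrays for 1 probe, not probes with each other.

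Cisplatin and water arrays stood apart in their 75th percentile. The 75th percentile was 1387 to 1407 intensity units in intravenous cisplatin and 1008 to 1055 in intravenous water, and 1439 to 1532 in gavage cisplatin and 969.7 to 1020 in gavage water. Of all probes 66.1% to 73.9% were well above background and 0 spots were saturated. Across probes, r was 0.984 to 0.993 between arrays of 1 group and 0.942 to 0.991 between arrays of different groups. These ranges overlap. All 13 proximal tubule and all 7 podocyte genes on the array were well above background on at least 1 array of every group. Tissue that held cortex among other parts could give the same, so this does not test the cortex label. Scaling on the spike-in controls in place of the 75th percentile raised every log2 effect of cisplatin by 0.56 in the intravenous and by 0.65 in the gavage experiment, and where that ends the call or turns the direction of a gene described here, the value is given with the gene. Fewer cells of a type and less RNA per cell cannot be told apart in whole-cortex RNA.

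**Figure D1:**
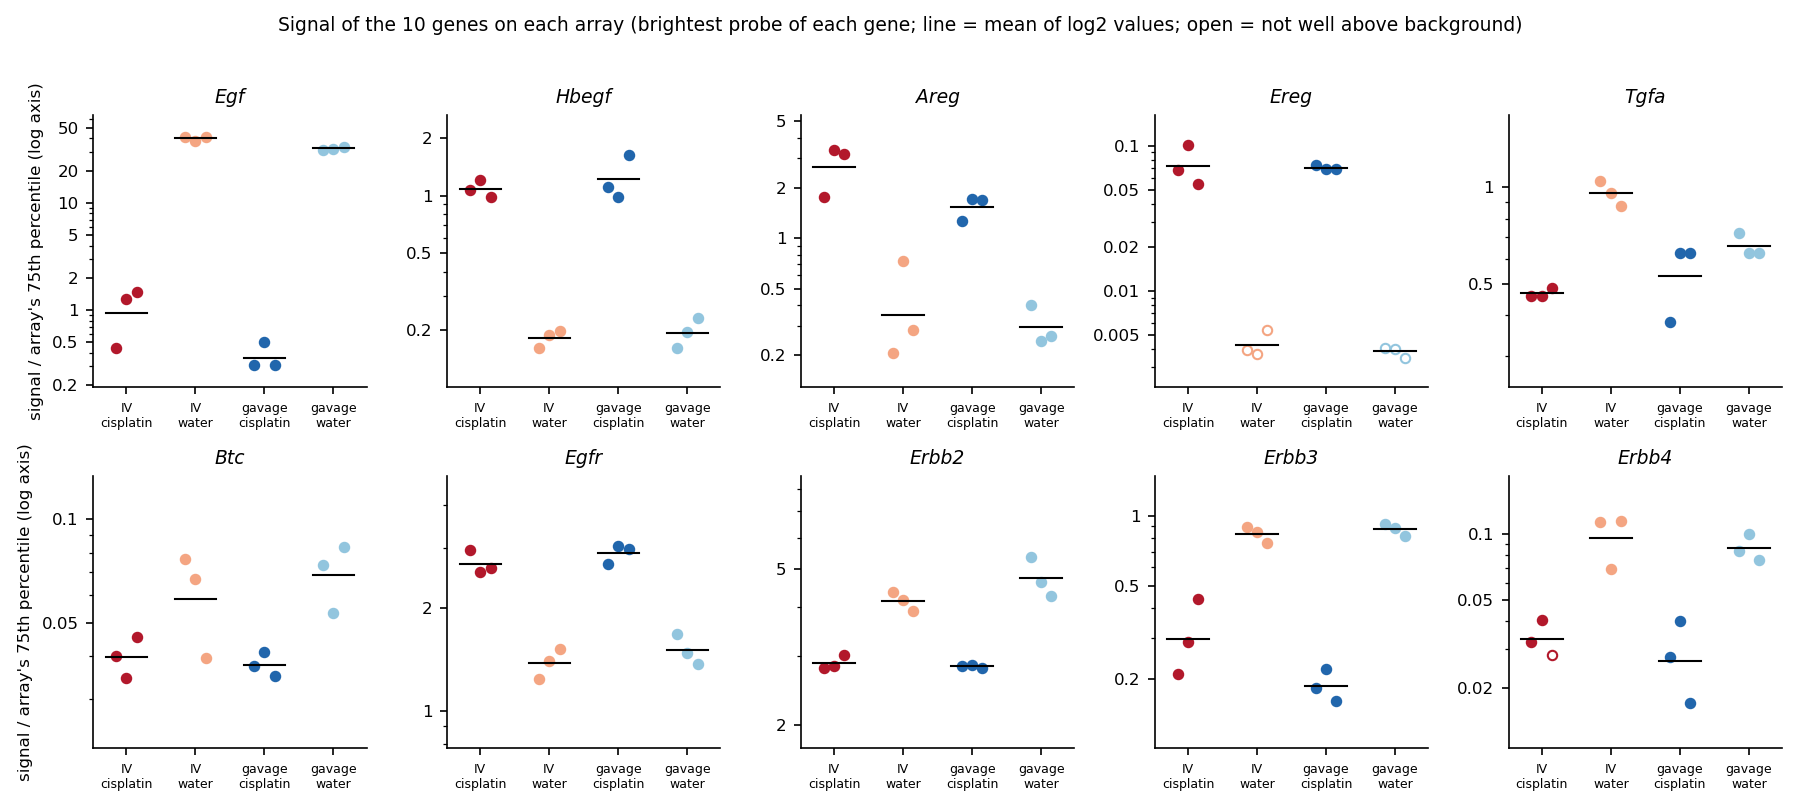
Relative signal (processed intensity over the array's 75th percentile, log axis) of the brightest probe of each of the 10 genes on the 12 arrays; points are arrays, lines are means of log2 values (n = 3), and open points are not well above background. Egf sits between 0.306 and 1.47 on the 6 cisplatin arrays and between 31.3 and 40.8 on the 6 water arrays, while Hbegf, Areg, Ereg and Egfr are higher on every cisplatin array than on the water arrays of the same experiment.

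Egf, which encodes the epidermal growth factor precursor, was the member that moved furthest. Its brighter probe read 0.445, 1.27 and 1.47 in intravenous cisplatin (replicates 1 to 3), against 40.8, 37.9 and 40.8 in intravenous water. It read 0.306, 0.501 and 0.306 in gavage cisplatin, against 31.3, 31.9 and 33.4 in gavage water. The groups were separated by more than an order of magnitude in both experiments, and within intravenous cisplatin replicate 1 was the lowest. Egf fell by 5.41 ± 0.38 on the log2 scale after intravenous cisplatin (SE, 42.4-fold, adjusted p = 4.94e-06) and fell by 6.48 ± 0.38 after gavage cisplatin (89.3-fold, adjusted p = 1.09e-06). This placed it 19th from the lowest of 34444 features in the intravenous and 29th in the gavage experiment. A second Egf probe fell by 5.37 on the same scale in the intravenous experiment and fell by 6.54 in the gavage experiment.

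The markers of the nephron segments known to make EGF were low on the same arrays. This was not particular to those segments, since 12 of 13 proximal tubule genes fell in the intravenous and all 13 in the gavage experiment. The summed relative signal of 13 thick ascending limb and distal convoluted tubule genes was 27.4, 58.2 and 83.9 in intravenous cisplatin, against 704.9, 595.4 and 725.3 in intravenous water. In gavage cisplatin it was 27.9, 38.5 and 25.9, against 593.4, 647.1 and 601.5 in gavage water. Intravenous cisplatin replicate 1, the array lowest in Egf within its group, was also the lowest in this sum, and likewise in the sum of 13 proximal tubule genes (294.5, against 708.9 and 897.8 on the other arrays of its group). Of the 12 genes of the thick ascending limb and distal convoluted tubule list that were measured, 10 were lower, 0 higher and 2 did not pass in each experiment. Over all features 32% were called lower in the intravenous and 29.8% in the gavage experiment. The calcium-binding protein gene Pvalb did not reach the background mark on the arrays of intravenous water, gavage cisplatin or gavage water. Umod, which encodes the urinary protein uromodulin, changed by -6.33 and -8.95 on the log2 scale in the intravenous and the gavage experiment, and Slc12a3, the sodium chloride cotransporter of the distal convoluted tubule, by -2.44 and -2.21. The part of these cells in the fall of Egf was not tested.

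The genes nearest to Egf over the 12 arrays were searched for, so that their likeness to Egf follows from the choice. When each gene's log2 values were taken minus their own mean over the 6 water arrays, the 5 named genes nearest to Egf among 11355 candidates over the 12 arrays were Ppp1r1a, Atp12a, Nat8f1, Rgn and Slc16a4. Their root mean square distances from Egf were 0.57, 0.62, 0.76, 0.77 and 0.77 log2 units. Ppp1r1a, which encodes an inhibitor of protein phosphatase 1, changed by -4.75 in the intravenous and -5.72 in the gavage experiment, and Atp12a, a proton and potassium pump gene, by -4.63 and -6.95. The changes were -4.53 and -6.06 for Nat8f1, -4.50 and -5.49 for Rgn, and -4.31 and -5.48 for Slc16a4. Ppp1r1a is itself 1 of the genes in the thick ascending limb and distal convoluted tubule list, while Atp12a, Nat8f1, Rgn and Slc16a4 are in none of the marker lists.

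Hbegf, which encodes HB-EGF, a membrane-anchored ligand of EGFR and ErbB4, was higher after cisplatin by nearly the same amount in both experiments. Its brighter probe read 1.07, 1.21 and 0.979 in intravenous cisplatin, against 0.161, 0.187 and 0.197 in intravenous water. It read 1.11, 0.988 and 1.64 in gavage cisplatin, against 0.161, 0.195 and 0.231 in gavage water. No cisplatin array came near any water array. Hbegf rose by 2.58 ± 0.20 (log2 ± SE, 5.98-fold, adjusted p = 7.12e-06) in the intravenous and by 2.65 ± 0.20 (6.28-fold, adjusted p = 3.43e-06) in the gavage experiment. The second probe rose by 2.36 in the intravenous and 2.65 in the gavage experiment. The named genes nearest to Hbegf by the same measure were Rad18, a ubiquitin ligase gene of DNA damage tolerance, the galanin receptor gene Galr2, C1h11orf24, the kinase gene Map3k6 and S100a10, at distances of 0.18, 0.19, 0.22, 0.22 and 0.23 log2 units.

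Areg encodes amphiregulin, a ligand of EGFR, and was measured by 1 probe. It read 1.76, 3.39 and 3.21 in intravenous cisplatin, against 0.206, 0.729 and 0.283 in intravenous water. It read 1.28, 1.72 and 1.69 in gavage cisplatin, against 0.398, 0.243 and 0.262 in gavage water. The groups did not overlap, although intravenous water replicate 2 stood above the other water arrays. Areg rose by 2.94 ± 0.43 (log2 ± SE, 7.67-fold, adjusted p = 0.000295) in the intravenous and by 2.40 ± 0.43 (5.27-fold, adjusted p = 0.000831) in the gavage experiment. Without intravenous water replicate 2 the intravenous value was 3.47.

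Ereg encodes epiregulin, a ligand of EGFR and ErbB4, and its single probe was not well above background on any of the 6 water arrays. It read 0.0677, 0.101 and 0.0548 in intravenous cisplatin, against 0.00392, 0.00369 and 0.00536 in intravenous water. It read 0.0734, 0.0689 and 0.0693 in gavage cisplatin, against 0.00405, 0.00398 and 0.00346 in gavage water. All 6 cisplatin arrays were well above background. Ereg was at least 3.39-fold higher after intravenous cisplatin (adjusted p = 8.60e-07) and at least 3.69-fold higher after gavage cisplatin (adjusted p = 4.46e-07), where the bound sets the cisplatin mean against the dimmest probe that was well above background on each water array. The gene passed the filter through the cisplatin groups, where it is high, so that these p-values are no independent support. With normexp background correction, an alternative that lifts dim signals, the log2 differences were 1.1 (intravenous) and 0.93 (gavage), below these bounds.

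Markers of injured tubules and of fibroblasts were higher on the same arrays as these ligands, and those of macrophages in part. Of the 11 injured tubule genes measured, 10 rose in each experiment, and their summed relative signal was 599.9 to 734.8 in intravenous cisplatin, against 49.3 to 54.3 in intravenous water, and 692.2 to 728.6 in gavage cisplatin, against 50.2 to 54.3 in gavage water. Havcr1, the gene of the tubule injury marker KIM-1, rose by 11.28 in the intravenous and 10.95 in the gavage experiment, and the lipocalin gene Lcn2 by 5.80 and 7.84. Of 13 macrophage genes, 6 rose in the intravenous and 11 in the gavage experiment, with sums of 177.3 to 219.4 in intravenous cisplatin, against 95.8 to 181.4 in intravenous water, and 172.7 to 236.9 in gavage cisplatin, against 95.9 to 106.6 in gavage water. The macrophage sums of the intravenous groups overlapped. All 8 fibroblast genes rose in both experiments. Over all features 26.4% were called higher in the intravenous and 29.5% in the gavage experiment. The summed signals of endothelial, podocyte and mast cell markers were lower after cisplatin in both. The macrophage marker Cd163 was not well above background on any water array, nor was the fibroblast marker Lum. The part of these cells in the rise of the ligands was not tested.

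Tgfa, which encodes transforming growth factor alpha, gave opposite answers from its pair of probes, both assigned to the same RefSeq transcript. The brighter probe read 0.460, 0.459 and 0.488 in intravenous cisplatin, against 1.05, 0.962 and 0.873 in intravenous water. It read 0.383, 0.625 and 0.624 in gavage cisplatin, against 0.722, 0.624 and 0.626 in gavage water. By this probe the intravenous groups were apart, with cisplatin lower, and the gavage groups overlapped. The dimmer probe read 0.403, 0.286 and 0.262 in intravenous cisplatin, against 0.157, 0.121 and 0.124 in intravenous water. It read 0.380, 0.408 and 0.492 in gavage cisplatin, against 0.106, 0.114 and 0.0642 in gavage water. By this second probe every cisplatin array was above every water array in both experiments. The brighter probe changed by -1.03 ± 0.17 (log2 ± SE, adjusted p = 0.000676) in the intravenous and by -0.31 ± 0.17 (adjusted p = 0.153) in the gavage experiment, where spike-in scaling turned it to 0.35. The dimmer probe changed by 1.23 ± 0.24 (adjusted p = 0.00145) and 2.21 ± 0.24 (adjusted p = 2.84e-05). No direction can be given for the gene: the mean of both probes was 0.10 (adjusted p = 0.644) in the intravenous and 0.95 (adjusted p = 0.000843) in the gavage experiment. With spike-in scaling the brighter probe's intravenous value no longer passed (-0.47, adjusted p = 0.0878).

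**Figure D2:**
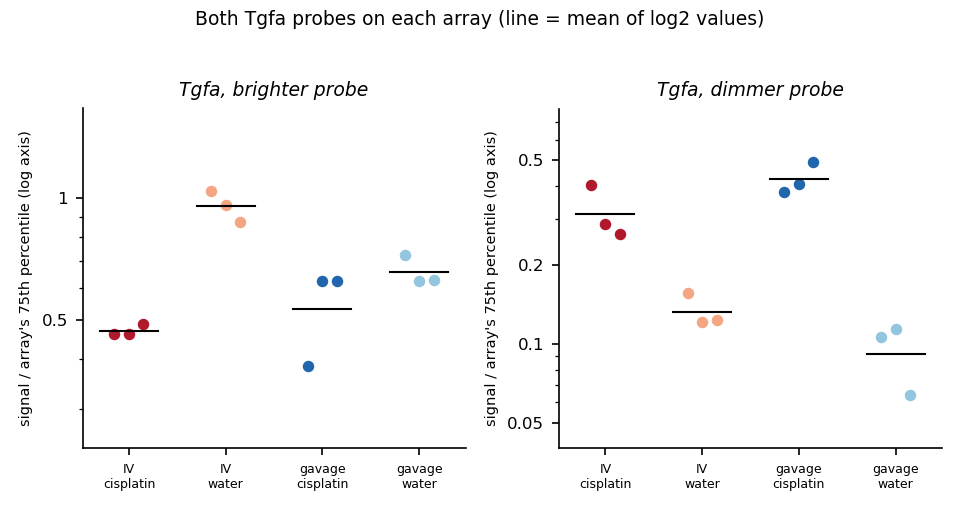
Relative signal (log axis) of the brighter (left) and the dimmer (right) Tgfa probe on the 12 arrays; points are arrays and lines are means of log2 values (n = 3). The brighter probe is lower on all 3 intravenous cisplatin arrays than in intravenous water, whereas the dimmer probe is higher on all 6 cisplatin arrays than on any water array.

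Btc, which encodes betacellulin, a ligand of EGFR and ErbB4, averaged lower in both cisplatin groups. Its brighter probe read 0.0400, 0.0345 and 0.0455 in intravenous cisplatin, against 0.0769, 0.0671 and 0.0394 in intravenous water. It read 0.0374, 0.0410 and 0.0350 in gavage cisplatin, against 0.0735, 0.0532 and 0.0833 in gavage water. The gavage groups were apart, and intravenous water replicate 3 lay among the intravenous cisplatin arrays. The change was -0.57 ± 0.24 (log2 ± SE, adjusted p = 0.0699) in the intravenous experiment, where it did not pass, and Btc fell by 0.87 ± 0.24 (adjusted p = 0.0113) in the gavage experiment. Without intravenous water replicate 3 the intravenous value was -0.85 (adjusted p = 0.00554). The second probe, for which no groups overlapped, fell by 0.69 (adjusted p = 0.0341) in the intravenous and fell by 1.28 (adjusted p = 0.00134) in the gavage experiment. With spike-in scaling neither value of the brighter probe passed (-0.0021 in the intravenous experiment, adjusted p = 0.995, and -0.21 in the gavage experiment, adjusted p = 0.456). That scaling adds 0.56 to the intravenous value of the second probe, which takes away most of its fall there.

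The contrast of Egf with the other ligands can be read within each array, with no scaling between arrays. The log2 ratio of Hbegf to Egf, relative to the mean of the same experiment's water arrays, was 9.05, 7.71 and 7.19 on the intravenous cisplatin arrays and 9.24, 8.36 and 9.80 on the gavage cisplatin arrays. For Areg it was 8.82, 8.25 and 7.96 on the intravenous and 8.84, 8.56 and 9.24 on the gavage cisplatin arrays. On the water arrays all such values of the 5 ligands lay between -0.80 and 1.13, so that no cisplatin array came near them. Ereg gave 8.44 to 10.47 on the intravenous and 10.18 to 10.98 on the gavage cisplatin arrays, from a probe that was below the background mark in the water groups. The ratio also shifted for the ligands that were flat or lower themselves. Tgfa, by its brighter probe, gave 3.78 to 5.43 and 5.94 to 6.64 in intravenous and gavage cisplatin, and Btc gave 4.20 to 5.93 and 5.26 to 5.84. Such a ratio shows unequal change of both genes and is carried largely by Egf.

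**Figure D3:**
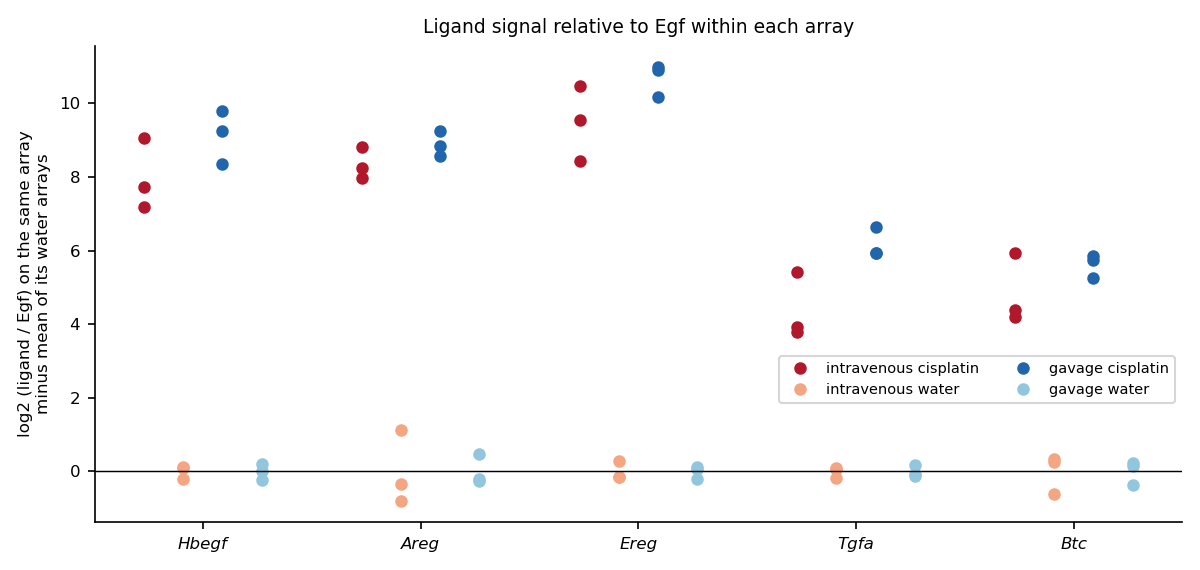
Log2 ratio of each ligand's signal to that of Egf on the same array, minus the mean of this ratio over the water arrays of the same experiment; each point is 1 array. Hbegf lies between 7.19 and 9.80 on the 6 cisplatin arrays, and the water arrays of all 5 ligands lie between -0.80 and 1.13.

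Btc, Areg and Ereg are neighbours in the rat genome. In the GRCr8 assembly Areg lies on chromosome 14 with Btc as the next gene on one side and Ereg on the other, and Epgn, a further ligand gene that was not analysed here, follows Ereg. Areg and Ereg rose in both experiments while their neighbour Btc fell in one and did not pass in the other. The start regions of Areg and Btc are shown for this difference between neighbours, and those of Egf and Hbegf as a ligand gene that fell and one that rose, each by both of its probes. The sequences are from RefSeq (GRCr8, 5′ to 3′ on the strand of the gene) and run from 250 bases before to 50 bases after the start of the gene. They were searched on both strands for the AP-1 site spelled TGANTCA, for the cyclic AMP response element (CRE) spelled TGACGTCA, for the GC box spelled GGGCGG and for the TATA box spelled TATAAA, and capitals mark a match on either strand. Areg is at chr14:17265592-17265891 (minus strand), Btc at chr14:16992418-16992717 (plus strand), Egf at chr2:220976248-220976547 (minus strand) and Hbegf at chr18:28390171-28390470 (minus strand).
Areg: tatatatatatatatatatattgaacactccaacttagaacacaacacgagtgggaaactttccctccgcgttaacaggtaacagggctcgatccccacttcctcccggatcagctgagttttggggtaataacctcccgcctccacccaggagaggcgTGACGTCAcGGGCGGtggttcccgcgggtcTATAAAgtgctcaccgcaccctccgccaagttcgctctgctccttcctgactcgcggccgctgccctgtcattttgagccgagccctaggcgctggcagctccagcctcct
Btc: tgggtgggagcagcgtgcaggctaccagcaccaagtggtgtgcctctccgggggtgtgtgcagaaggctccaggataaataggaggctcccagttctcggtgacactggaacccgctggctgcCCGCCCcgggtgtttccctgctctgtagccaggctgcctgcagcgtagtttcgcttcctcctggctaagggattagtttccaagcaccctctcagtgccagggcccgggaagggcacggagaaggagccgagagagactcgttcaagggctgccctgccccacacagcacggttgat
Egf: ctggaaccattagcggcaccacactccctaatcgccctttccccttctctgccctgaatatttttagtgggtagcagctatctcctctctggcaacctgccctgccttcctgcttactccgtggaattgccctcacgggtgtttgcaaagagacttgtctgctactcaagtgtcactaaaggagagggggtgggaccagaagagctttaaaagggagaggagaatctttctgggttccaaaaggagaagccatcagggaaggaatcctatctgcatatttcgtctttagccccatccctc
Hbegf: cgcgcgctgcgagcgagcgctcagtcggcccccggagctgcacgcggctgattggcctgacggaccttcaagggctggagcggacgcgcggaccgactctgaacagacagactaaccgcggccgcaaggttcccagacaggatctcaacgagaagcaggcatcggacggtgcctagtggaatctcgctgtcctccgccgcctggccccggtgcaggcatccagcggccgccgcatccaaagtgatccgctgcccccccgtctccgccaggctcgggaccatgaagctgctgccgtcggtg
The Areg sequence held a CRE whose first base is at position -91 from the start, a GC box at -82 and a TATA box at -61, with no overlap between them. The Btc sequence held 1 GC box, at -127, and neither the Egf nor the Hbegf sequence held any of the 4 motifs. Sequences were found for 8 of the 10 genes, and those of Tgfa, Egfr, Erbb2 and Erbb4 held a GC box and none of the other motifs. Among all 33469 RefSeq sequences of this length, 1.8% held the CRE, 7.3% the AP-1 motif, 33.1% a GC box and 14.2% a TATA box. A match describes letters in this window and says nothing about binding, and no match leaves the rest of the locus unread.

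Among the receptors, Egfr rose, while Erbb3 and Erbb4 fell under every scaling and Erbb2 fell under all but the spike-in scaling. Egfr encodes the receptor of all 6 ligands measured. Its brighter probe read 2.96, 2.54 and 2.62 in intravenous cisplatin, against 1.24, 1.40 and 1.52 in intravenous water. It read 2.69, 3.04 and 2.97 in gavage cisplatin, against 1.68, 1.48 and 1.37 in gavage water. Every cisplatin array was above every water array. Egfr rose by 0.96 ± 0.11 (log2 ± SE, 1.95-fold, adjusted p = 7.44e-05) in the intravenous and by 0.95 ± 0.11 (1.93-fold, adjusted p = 5.60e-05) in the gavage experiment. The second probe rose by 0.87 in the intravenous and 0.82 in the gavage experiment.

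Erbb2, the gene of the receptor without a known ligand, had 4 probes. The brightest read 2.79, 2.82 and 3.01 in intravenous cisplatin, against 4.36, 4.16 and 3.91 in intravenous water. It read 2.82, 2.85 and 2.80 in gavage cisplatin, against 5.37, 4.62 and 4.27 in gavage water. The groups did not overlap. Relative to the 75th percentile Erbb2 fell by 0.53 ± 0.09 on the log2 scale (SE, adjusted p = 0.000956) in the intravenous and fell by 0.75 ± 0.09 (adjusted p = 8.68e-05) in the gavage experiment, but with spike-in scaling the intravenous value turned to 0.036 and the gavage value was -0.09, neither past the test. The second probe changed by -1.39 in the intravenous and -0.89 in the gavage experiment, both past the test. The third probe changed by -0.50 in the intravenous experiment (adjusted p = 0.0672) and by -0.56 in the gavage experiment (adjusted p = 0.0451). The dimmest changed by -0.53 and -1.42, both past the test, and was well above background on all 3 arrays in gavage water alone. It passed the filter through that group, where it is high, so that its gavage call is no independent support. Spike-in scaling adds 0.56 (intravenous) and 0.65 (gavage) to these probes as well. That is more than the falls of the third probe in both experiments and of the dimmest probe in the intravenous experiment.

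Erbb3 encodes a neuregulin receptor that signals mainly through its partners. Its brighter probe read 0.208, 0.286 and 0.439 in intravenous cisplatin, against 0.894, 0.852 and 0.765 in intravenous water. It read 0.182, 0.221 and 0.161 in gavage cisplatin, against 0.920, 0.880 and 0.820 in gavage water. Both pairs of groups were apart, and the intravenous cisplatin arrays were more spread than the others. Erbb3 fell by 1.49 ± 0.23 on the log2 scale (SE, 2.82-fold, adjusted p = 0.000373) in the intravenous and fell by 2.23 ± 0.23 (4.68-fold, adjusted p = 2.29e-05) in the gavage experiment. The second probe fell by 0.96 (adjusted p = 0.00762) in the intravenous and fell by 2.24 (adjusted p = 3.48e-05) in the gavage experiment.

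Erbb4 encodes a receptor for neuregulins and several EGF-type ligands, and was measured by 1 dim probe. It read 0.0321, 0.0405 and 0.0281 in intravenous cisplatin, where replicate 3 was not well above background, against 0.113, 0.0692 and 0.114 in intravenous water. It read 0.0276, 0.0400 and 0.0170 in gavage cisplatin, against 0.0838, 0.0993 and 0.0759 in gavage water. The groups did not overlap in either experiment. Erbb4 fell by 1.54 ± 0.30 on the log2 scale (SE, adjusted p = 0.00170) in the intravenous and fell by 1.69 ± 0.30 (adjusted p = 0.000807) in the gavage experiment.

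**Figure D4:**
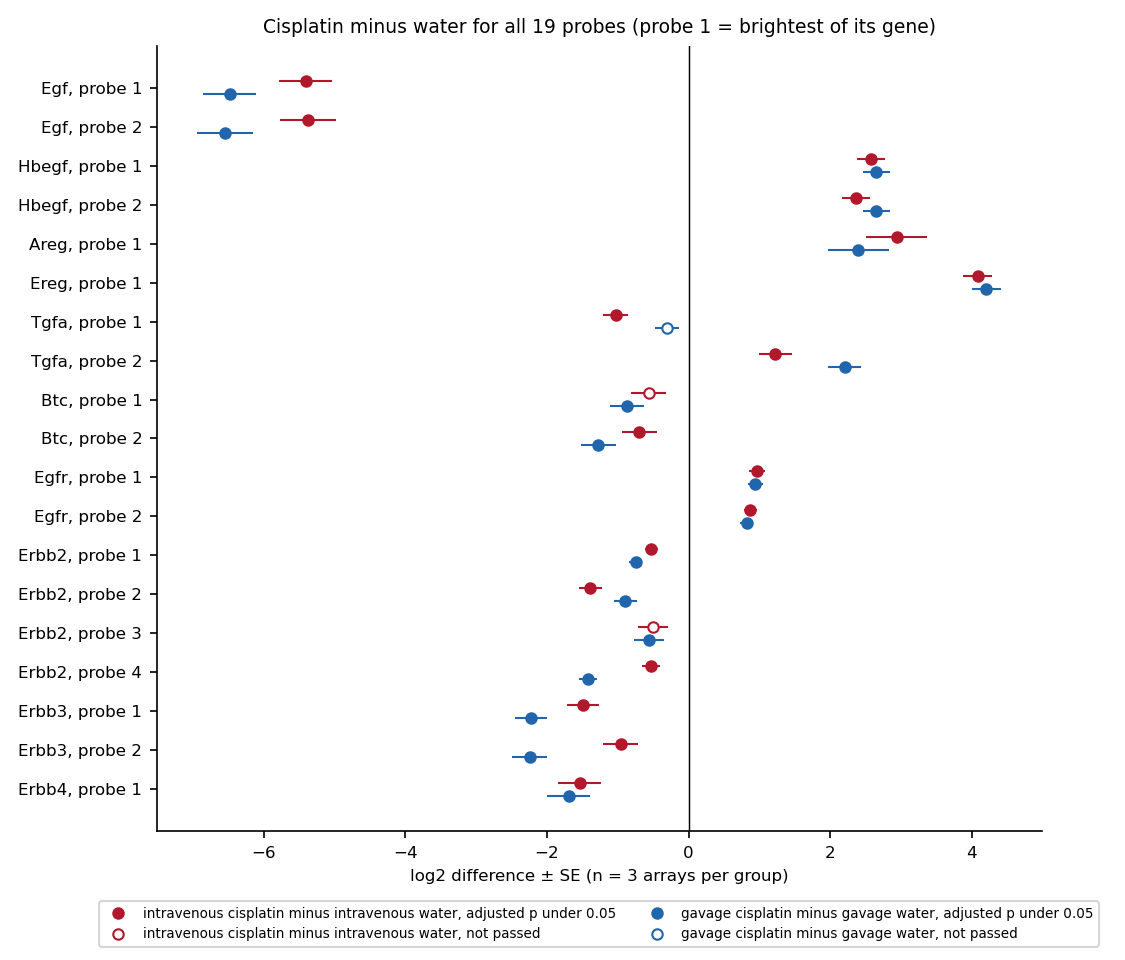
Log2 difference of cisplatin minus water (± SE, n = 3 arrays per group) for all 19 probes of the 10 genes in the intravenous (red) and the gavage (blue) experiment; filled points have an adjusted p under 0.05. Of the 19 probes, 17 pass in the intravenous and 18 in the gavage experiment, and Tgfa is the gene whose probes point in opposite directions; with spike-in scaling all points move right by 0.56 (red) and 0.65 (blue).

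Over all probes tested, 27.6% were called higher and 30.6% lower in the intravenous experiment and 29.6% higher and 29.9% lower in the gavage experiment, beside 17 and 18 of these 19. The counts include the Ereg probe and the dimmest Erbb2 probe, which passed the filter only through groups where they are high. Apart from Tgfa, the probes of each gene with several probes pointed the same way.

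The difference of the cisplatin effects between the experiments, intravenous minus gavage, was called for 0 of the 10 genes and 0 of the 19 probes (limma). Over all features 0.168% were called higher and 1.03% lower, and over all probes 0.169% and 0.647%. At an unadjusted p under 0.05 the difference passed for 5 of the probes and 2 of the 10 genes, Tgfa (-0.72, 95% interval -1.27 to -0.18, adjusted p = 0.156) and Erbb3 (0.73, 0.02 to 1.45, adjusted p = 0.247). For Egf it was 1.07, with an interval from -0.12 to 2.27 and an adjusted p of 0.301. Without intravenous cisplatin replicate 1, the lowest Egf array of its group, the difference for Egf was 1.61 (adjusted p = 0.0227), and without gavage cisplatin replicate 1 that for Tgfa was -0.96 (adjusted p = 0.00377). The intervals were -0.69 to 0.54 for Hbegf, -0.82 to 1.90 for Areg, -0.79 to 0.54 for Ereg and -0.47 to 1.07 for Btc. They were -0.33 to 0.37 for Egfr, -0.08 to 0.51 for Erbb2 and -0.80 to 1.11 for Erbb4. Differences within these intervals cannot be told from none here.

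Between intravenous water and gavage water, 0 of the 10 genes passed (limma), with 0% of all features called higher and 0% lower. At an unadjusted p under 0.05, 1 gene passed, Tgfa by its brighter probe, which was higher in intravenous water by 0.55 (adjusted p = 0.203). Its readings of 0.873 to 1.05 in intravenous water and 0.624 to 0.722 in gavage water did not overlap. Egf was 37.9 to 40.8 in intravenous water and 31.3 to 33.4 in gavage water, a log2 difference of 0.31 (adjusted p = 0.772).

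Slides held the groups unevenly. Gavage cisplatin replicate 1 shared slide 1 with all 3 gavage water arrays, replicates 2 and 3 shared slide 2 with all 3 arrays of intravenous water, and intravenous cisplatin had slide 3 to itself. In the intravenous experiment slide and treatment therefore cannot be told apart. Within slide 1, in differences added after the data were seen, the lone gavage cisplatin array minus gavage water gave -6.72 for Egf, 2.52 for Hbegf, 2.12 for Areg, 0.84 for Egfr, -0.75 for Erbb2, -2.26 for Erbb3 and -1.64 for Erbb4 (log2). It gave -0.78 for the brighter and 2.05 for the dimmer Tgfa probe and -0.88 for Btc. With the slide as a block, which rests on slide 1, Btc no longer passed (adjusted p = 0.0764) and the brighter Tgfa probe did (adjusted p = 0.00167). Within slide 2, gavage cisplatin minus intravenous water, a comparison across experiments, gave -6.67 for Egf, 2.81 for Hbegf, 2.29 for Areg, 1.12 for Egfr and -2.15 for Erbb3. Directions were thus the same within a slide as across slides for these genes.

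Genes around the family were read from 5 lists. In all of them together 28 genes were higher and 11 lower in the intravenous experiment, and 28 higher and 10 lower in the gavage experiment, out of 63 measured. With spike-in scaling 49 were higher and 2 lower in the intravenous, and 49 higher and 3 lower in the gavage experiment. The shares over all features, against which the counts of each list are to be read, were 26.4% higher and 32% lower in the intravenous and 29.5% higher and 29.8% lower in the gavage experiment. The median log2 difference over all features was -0.06 in the intravenous and 0.01 in the gavage experiment. Of the other ErbB ligands, 3 were measured. The neuregulin gene Nrg1, a ligand of ErbB3 and ErbB4, rose by 2.32 ± 0.26 in the intravenous (SE, adjusted p = 5.83e-05) and 1.96 ± 0.26 in the gavage experiment (adjusted p = 0.000114). Nrg4, a ligand of ErbB4, fell by 0.83 (adjusted p = 0.00111) in the intravenous experiment and was at -0.30 (adjusted p = 0.110) in the gavage experiment. With spike-in scaling the intravenous value of Nrg4 no longer passed (-0.27, adjusted p = 0.135) and the gavage value turned to 0.35. Nrg2, a further neuregulin gene, did not pass in either experiment, but with spike-in scaling it was higher in both (0.63, adjusted p = 0.000346 in the intravenous, and 0.48, adjusted p = 0.0015 in the gavage experiment).

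Of 7 genes of ligand shedding, 3 rose, 1 fell and 3 did not pass in each experiment, with medians of 0.19 (intravenous) and 0.18 (gavage). Rhbdf2, which encodes iRhom2, the partner that brings ADAM17 to the cell surface, rose by 1.26 in the intravenous and 1.66 in the gavage experiment. Adam15, a gene of the same protease family, rose by 1.13 and 1.36, and Adam17, the protease that releases HB-EGF, amphiregulin and transforming growth factor alpha, by 0.50 and 0.27. The gavage value of Adam17 lay close to the threshold (adjusted p = 0.0427) and did not pass under 14 of 25 alternatives, with an adjusted p of up to 0.145. Timp3, an inhibitor of ADAM17, fell, with changes of -1.24 and -1.70.

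Receptor adaptors and the signal relay below the receptors were mixed. Of 25 genes, 11 rose and 5 fell in the intravenous experiment (median 0.13), and 8 rose and 5 fell in the gavage experiment (median 0.15), with the gavage count of rises near the 29.5% of all features. Pik3r1, the regulatory subunit gene of phosphoinositide 3-kinase, rose by 1.71 in the intravenous and 0.85 in the gavage experiment, while the MAP kinase kinase gene Map2k2 fell (-0.67 and -0.99), the intravenous value no longer passing with spike-in scaling (-0.11, adjusted p = 0.503). Vav2, a guanine nucleotide exchange factor gene, fell (-0.43 and -0.71) relative to the 75th percentile, though with spike-in scaling its intravenous value turned to 0.13 and its gavage value no longer passed (-0.058, adjusted p = 0.647). The tyrosine kinase gene Src rose by 0.62 (adjusted p = 0.000102) in the intravenous experiment and was at -0.0035 (adjusted p = 0.972) in the gavage experiment, and turned to 0.65 there with spike-in scaling. Its difference between experiments passed the test (0.62, adjusted p = 0.0407), the only one of the 25 that did, but under 13 of 23 alternatives it did not pass (adjusted p of up to 0.116).

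Of 14 genes that restrain or recycle the receptors, 6 rose and 2 fell in the intravenous experiment (median 0.18), and 7 rose and 2 fell in the gavage experiment (median 0.22). The tyrosine phosphatase gene Ptpn1 rose by 0.98 in the intravenous and 1.32 in the gavage experiment, and Socs5, an adaptor that promotes loss of EGFR, by 0.43 and 0.64. The endocytic adaptor gene Epn1 (-0.39 and -0.53) and the deubiquitinase gene Usp8 (-0.45 and -0.54) were the members that fell, and with spike-in scaling both turned, to 0.17 and 0.12 for Epn1 and to 0.11 and 0.11 for Usp8.

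The list of genes known to respond to ERK, the kinase at the end of this relay, had the highest medians of the 5, at 0.81 in the intravenous and 0.83 in the gavage experiment. Of 14 measured, 7 rose and 2 fell in the intravenous experiment, and 9 rose and 2 fell in the gavage experiment. The transcription factor gene Etv4 rose by 4.15 ± 0.30 in the intravenous (SE, adjusted p = 6.08e-06) and 4.47 ± 0.30 in the gavage experiment (adjusted p = 2.14e-06), and Myc by 2.27 and 2.45. Phlda1 rose by 1.55 and 1.61, and Spry2, a feedback inhibitor of receptor tyrosine kinases, by 1.02 and 0.41, the gavage value of Spry2 not passing once slide was a fixed term (adjusted p = 0.0598). The genes that fell were Etv1 (-1.20 and -1.83) and Etv5 (-0.67 and -0.79). Both are of the same transcription factor family as Etv4 and were named after their values were seen. Spike-in scaling adds 0.56 (intravenous) and 0.65 (gavage), which takes away most of the fall of Etv5. The genes of this list also respond to other signals.

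**Figure D5:**
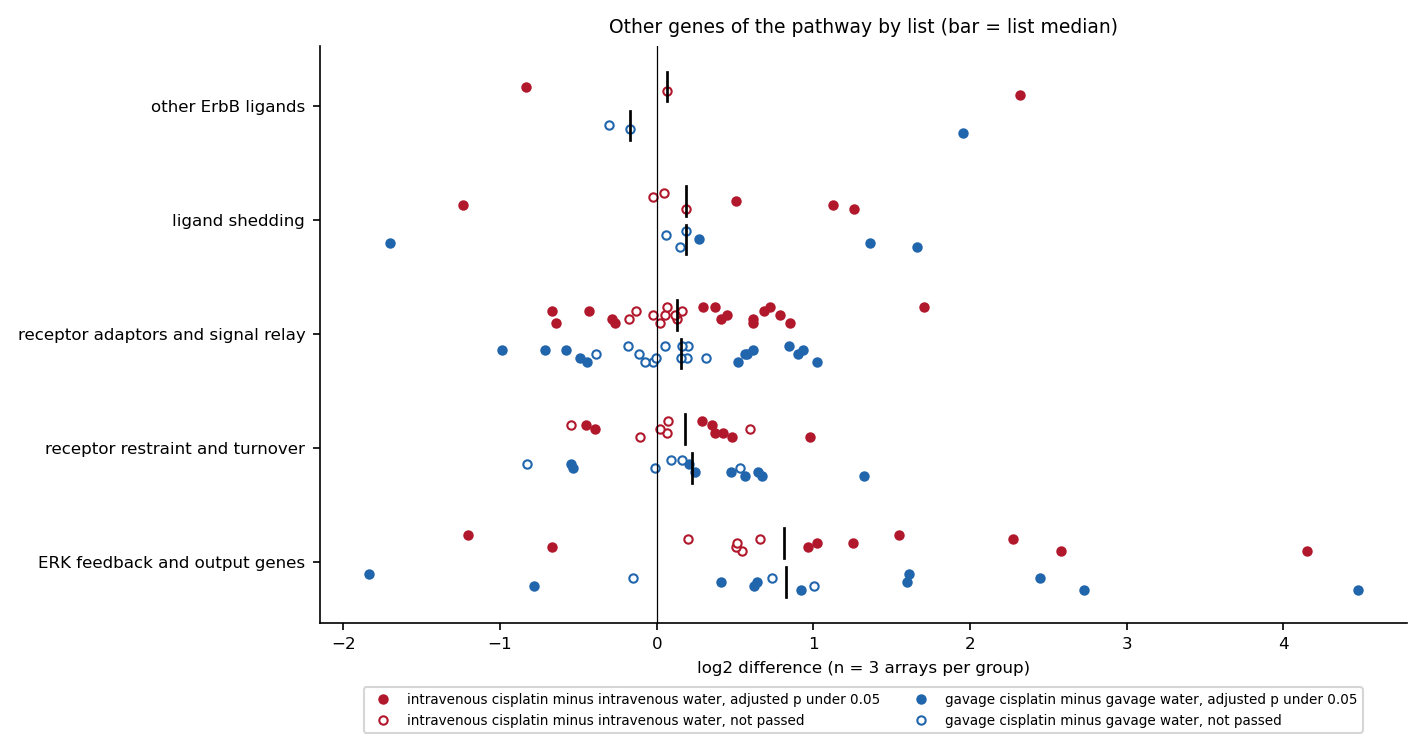
Log2 difference of cisplatin minus water for the genes of 5 lists around the receptor family in the intravenous (red) and the gavage (blue) experiment; each point is 1 gene, filled with an adjusted p under 0.05, and bars are list medians. The ERK list has medians of 0.81 and 0.83, and the other lists have medians between -0.17 and 0.22; with spike-in scaling all red points move right by 0.56 and all blue points by 0.65.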

How the data were processed

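Renal cortex RNA of 12 rats was measured on 12 arrays, 3 per group. Per the submitters' processing notes, the authors used Feature Extraction 10.7 (in the file headers, 10.7.1.1). The deposited intensity used here is the processed signal, which the file headers describe as background-subtracted within each array. Checked against the scanner values, the table of values that the authors deposited holds a ratio, this signal over the array's 75th percentile; it served as an alternative. No other columns of values were left unused (0).

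Probe accessions were named through RefSeq (GRCr8, names only; the array design refers to rn4): 28206 of 61537 probes had 1 symbol and 33331 none. The log2 processed signal was taken minus each array's 75th percentile, without 1439 control spots and 82 uneven spots. The brightest probe by mean stood for a gene; unnamed probes stood alone. A feature was tested where some group had it well above background on all 3 of its arrays (34444, of them 12610 named genes; 43900 probes in the fit by probe). The group means were fitted with limma 3.58.1, run in R 4.3.3, with 8 residual and 2.09 prior degrees of freedom; tests were two-sided, Benjamini-Hochberg over all features, called at 0.05. A fold is a bound where the dim group had no array well above background.

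On simulated data for the gavage comparison over 34444 features, 42 of 50 changes of 2 log2 units, 26 of 50 of 1 and 9 of 50 of 0.5 were recovered with 7 false calls. Far fewer features were changed there than were called in the data, so that this recovery need not hold for the data. Precision is limited by how many arrays there are.

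The 10 members, the 5 pathway lists, the marker lists and the rules were chosen with earlier results of these data known. The text names all members with every probe, up to 4 genes of each pathway list and up to 3 of each marker list with the smallest p, always Umod, Slc12a3, Havcr1 and Lcn2, and the 5 genes nearest to Egf and to Hbegf; other names were chosen after their values were seen. A gene that the rule names is not reported here. Alternatives covered background correction, scaling, filters, probe choice, slides, replicate number, array weights, the value table and each array left out. Probe and protein sequences were not used here.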

Additional observations from a re-analysis of the deposited data

Results flagged for a closer look

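Src, the tyrosine kinase gene of the signal relay list, drew attention because its response to cisplatin differed between the experiments by a test of the difference itself. The log2 effect was 0.62 (adjusted p = 0.000102) in the intravenous and -0.0035 (adjusted p = 0.972) in the gavage experiment, a difference of 0.62 (limma adjusted p = 0.0407). The difference kept its direction under all 23 alternatives and did not pass under 13 of them, with adjusted p between 0.0112 and 0.116. Over all features 0.168% were called in this direction, and route, dose, experiment and slide cannot be told apart in this contrast.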

How the results depend on the processing

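The calls of Egf, Hbegf, Areg, Ereg, Egfr, Erbb3 and Erbb4 in both experiments kept their direction and side of the threshold under every alternative that gave a value. For Ereg, which passed the filter through the cisplatin groups alone, a call that stays is no independent support. The range was -5.73 to -4.84 (intravenous) and -6.72 to -5.83 (gavage) for Egf, and 1.97 to 3.14 and 2.24 to 3.31 for Hbegf. Ereg and Erbb4 gave no value with the filter for all 12 arrays, and the intravenous effect and the difference gave none with the slide as a fixed block. Of the counts of calls under the alternatives, 343 stayed within 1.5 times of the reported count and 14 moved.

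With spike-in scaling 3 of the 10 genes were lower in each experiment, and 49 genes of the pathway lists were higher in each, with 2 (intravenous) and 3 (gavage) lower. Named values that turned over with it were Erbb2 0.036, Vav2 0.13, Epn1 0.17, Usp8 0.11, Tpsab1 0.068, Tie1 0.18, Emcn 0.022, Nphs1 0.28 and Podxl 0.014 in the intravenous experiment. In the gavage experiment they were Nrg2 0.48, Nrg4 0.35, Tgfa 0.35, Il2rg 0.35, Src 0.65, Epn1 0.12, Usp8 0.11, Tpsab1 0.22, Tpsb2 0.54 and Nphs1 0.12. Il2rg is a lymphocyte, Tpsab1 and Tpsb2 are mast cell, Tie1 and Emcn endothelial and Nphs1 and Podxl podocyte markers. With the mean of all probes Tgfa turned to 0.10 (intravenous) and 0.95 (gavage), Nrg2 to 0.39 and Tpsab1 to 0.10 (both gavage), and with the slide as a fixed block Tpsb2 turned to 0.45 (gavage). By construction spike-in scaling adds a constant to each effect; the cause of the other reversals was not tested.

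For the difference between experiments, 1 member probe passed with the slide as a random block and 2 with array weights. With each array left out in turn, 0 to 3 member probes passed (3 without intravenous cisplatin replicate 1, 2 without gavage cisplatin replicate 1), and 0 to 1 members higher and 0 to 1 lower. Between the water groups 0 to 1 members were higher with an array left out (Tgfa, adjusted p = 0.0151 without gavage cisplatin replicate 1), and 1 with array weights (Tgfa, 0.56). The cause was not tested. The brighter Tgfa probe passed in the gavage experiment with normexp (-0.35), and Btc passed in the intravenous experiment with normexp (-0.51), with the mean of its probes (-0.63) and with array weights (-0.70).

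Replicate numbers are shared between groups but do not pair the rats: of 18 array pairs of the same number in different groups, deviations from group means correlated at r = -0.35 to 0.18, and 1 was over 0.1. With the replicate block 4 members were higher and 5 lower in each experiment, and 18 member probes passed in each. Signal over background limits Ereg, Btc, Erbb4 and the dimmest Erbb2 probe.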

Other observations

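Other parts of the nephron were read from marker lists. The summed relative signal of 13 proximal tubule genes was 294.5 to 897.8 in intravenous cisplatin, against 2085 to 2406 in intravenous water, and 165.1 to 360.02 in gavage cisplatin, against 2277 to 2594 in gavage water. Of these genes 12 fell in the intravenous and 13 in the gavage experiment, among them the dicarboxylate transporter gene Slc13a3 (-1.55 and -2.62) and the amino acid transporter gene Slc6a19 (-2.51 and -3.84). Over all features 32% were called lower in the intravenous and 29.8% in the gavage experiment. The difference between the experiments passed for 0 of the 13 (limma), and for 5 at an unadjusted p under 0.05. Without intravenous cisplatin replicate 1, the lowest array of its group in this sum, the differences of Slc13a3 (1.31) and Slc6a19 (1.72) passed. Of 9 collecting duct genes 6 fell and 1 rose in each experiment, beside 26.4% (intravenous) and 29.5% (gavage) of all features called higher. The gene that rose was the water channel gene Aqp4 (2.33 and 4.17). The vasopressin receptor gene Avpr2 changed by -0.93 in the intravenous and by -1.38 in the gavage experiment, and the intravenous value no longer passed with spike-in scaling (-0.37, adjusted p = 0.0613).

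Fibroblast genes summed to 77.5 to 134.6 in intravenous cisplatin, against 27.2 to 37.7 in intravenous water, and to 110.4 to 154.6 in gavage cisplatin, against 29.7 to 40.2 in gavage water, with the collagen gene Col1a1 up by 2.53 and 2.92. Of 7 endothelial genes 3 fell in the intravenous and 4 in the gavage experiment, and of 7 podocyte genes 4 and 5 fell, beside 32% and 29.8% of all features called lower, and spike-in scaling turned some of them. Of 9 lymphocyte genes 3 rose and 1 fell in the intravenous experiment, beside 26.4% and 32% of all features. The T cell receptor complex gene Cd3e rose by 1.70 there. The summed relative signal of these genes was lower, at 10.2 to 15.3 in intravenous cisplatin against 16.2 to 17.7 in intravenous water. This sum was not recomputed with spike-in scaling, which raises every intravenous effect by 0.56. In the gavage experiment 0 passed (limma, also 0 at an unadjusted p under 0.05), and Cd3e was at 0.42. The difference between experiments was called for 0 of the 9 (limma), and 1 had an unadjusted p under 0.05; without intravenous cisplatin replicate 1 that of Cd3e passed (1.88, adjusted p = 0.0336). Of 5 mast cell genes measured 1 rose and 2 fell in the intravenous and 1 fell in the gavage experiment.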
